A study of Triticum urartu with 18 samples.

Results

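Endosperm of the diploid wheat Triticum urartu was compared at 15 and at 10 days post anthesis (DPA), the middle of grain filling, with 3 RNA-Seq libraries at each stage, 6 of the 18 libraries of the series. The 6 libraries were taken by the stage named in their column headings, which give the group and not the sample, so library numbers below are column numbers. All plants were of the wild-type accession PI 428198, grown without treatment at an experimental station in 1 season, and the replicates of a stage were independent biological samples, per the labels. Embryo, aleurone, seed coat and pericarp had been dissected away before RNA was extracted. The remaining libraries were from endosperm at 5, 20 and 25 DPA and from flag leaf at 10 DPA, and 1 accession stands for the species throughout. The question was which transcripts change in level while starch and storage protein are being laid down.

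In wheat endosperm, imported sucrose is cleaved by sucrose synthase, converted to ADP-glucose by ADP-glucose pyrophosphorylase, and built into amylose and amylopectin by starch synthases, branching enzymes and debranching enzymes. Storage prolamins, the gliadins and the high and low molecular weight (HMW and LMW) glutenin subunits, are made on the endoplasmic reticulum, folded there with the help of protein disulfide isomerase, and deposited in protein bodies. In cereal grain, both classes of genes are controlled by a small set of transcription factors of the Dof, bZIP, MYB, NAC and B3 families. The deposited table marks members of these classes by annotation: 21 storage protein genes, 28 starch synthesis genes, 12 individually named regulator and processing genes and 1099 genes of transcription factor families. The other 25961 genes carry an identifier only, and are described by their values alone.

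Values are FPKM, fragment counts normalised for transcript length and library size, so that levels of different genes can be set side by side. The 10 DPA libraries had 18579 to 19022 genes above 0 and the 15 DPA libraries 15305 to 16131. Relative depth, estimated from the smallest steps between low FPKM values, was 0.979 to 1.06 of 10 DPA library 1 at 10 DPA and 0.683 to 0.807 at 15 DPA, and absolute depth is unknown. The 20 genes with the highest mean over the 6 libraries took 59.6%, 58.3% and 59.2% at 10 DPA and 70.9%, 70.8% and 70.0% at 15 DPA of the total FPKM, which leaves a smaller remainder for all other transcripts at the later stage. The median log2 change of the 14649 genes tested was -0.83, and it was -0.13 after median-ratio scaling, which sets the typical gene to a common level in all 6 libraries, a shift of 0.70. Calls needed both an adjusted p under 0.05 (limma, Benjamini-Hochberg over all tested genes) and a log2 change of 1 or more in size; "rose" and "fell" stand for calls on the values as deposited, and all log2 changes are of FPKM + 1. By that rule 4.02% of all genes were called higher at 15 DPA and 38.8% lower, 589 and 5682 genes. After scaling the shares were 8.59% and 12.7%, 1259 and 1857 genes, among them all 589 that were called higher as deposited; each of the 1857 called lower after scaling had also been called lower as deposited. In these bulk samples fewer cells of a kind and less transcript per cell cannot be told apart.

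**Figure D1:**
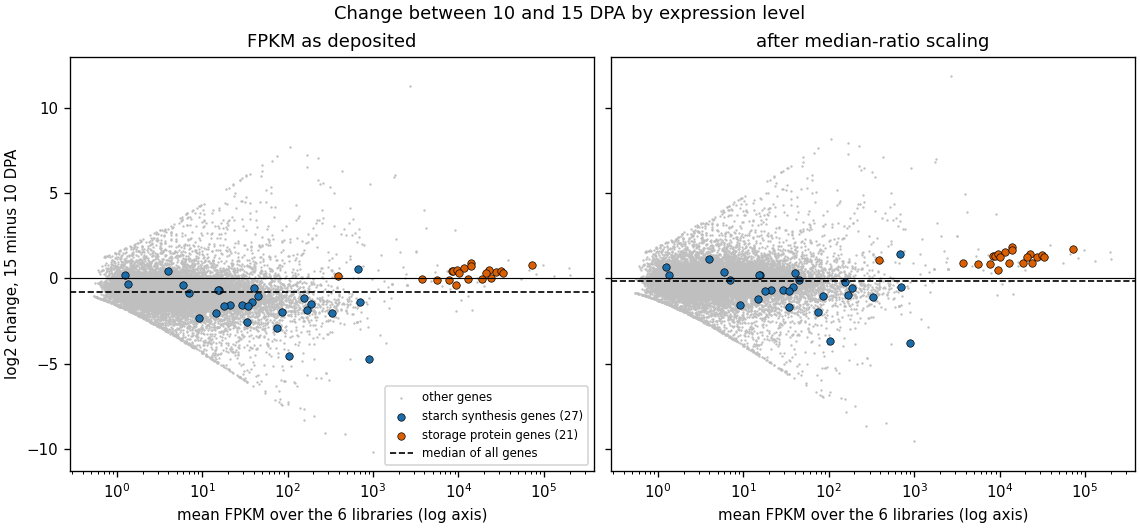
Log2 change between 10 and 15 DPA (vertical axis) against the mean FPKM over the 6 libraries (horizontal log axis) for each of 14649 genes tested, as deposited on the left and after median-ratio scaling on the right; dashed lines are the medians of all genes, -0.83 and -0.13. Storage protein genes lie near 0 on the left, -0.41 to 0.93, and most starch synthesis genes lie below the median of all genes.

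No marker of embryo, aleurone, seed coat or pericarp is annotated in the table, so the dissection could not be checked directly. A set of 92 genes abundant in flag leaf (mean there 1000 FPKM or more, and 10 or more times the 20 DPA endosperm mean) had a median of 139, 116 and 105 FPKM in the 10 DPA libraries and 28.8, 35.1 and 37.2 in those of 15 DPA, against 1669 to 2730 in leaf. Of the 83 tested, 62 fell and 5 rose, where 38.8% of all genes fell and 4.02% rose. After scaling 38 were called lower and 7 higher, against 12.7% and 8.59% of all genes. The set was picked partly by a 20 DPA mean that is low relative to leaf, which favours genes that fall toward that stage. These counts are therefore not a test of the dissection. Their summed share of the total FPKM was 1.11% to 1.51% at 10 DPA and 0.413% to 0.446% at 15 DPA, and 2 to 7 of them were at 0 in each library. Leaf shares such genes with green grain tissues, and the part of this decline in the results below was not tested.

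Storage protein transcripts made up a larger part of all transcripts at 15 DPA, and γ-gliadin, ω-gliadin and glutenin genes accounted for most of the difference. Limma called 0 of 21 storage protein genes in either direction as deposited (10 higher and 1 lower at an unadjusted p under 0.05), since no log2 change reached 1. By adjusted p under 0.05 alone 9 were higher and 1 lower, against 5.5% and 53.1% of all genes. Every 15 DPA library exceeded every 10 DPA library in 12 genes, against 6.47% of all genes, and lay below in 1, against 60.2%. Their median log2 change was 0.34 against -0.83 for all genes. After scaling 14 were called higher and 0 lower (0 lower at an unadjusted p under 0.05, by limma). That was 66.7% higher against 8.59% of all genes, with a median of 1.26 against -0.13. Together they took 17.1%, 17.5% and 18.0% at 10 DPA and 22.1%, 20.4% and 20.8% at 15 DPA of the total FPKM. The groups did not overlap in that share, and its exact permutation p was 0.1 (two-sided), the smallest that 3 against 3 libraries allow; the adjusted p over the 12 share measures was 0.109.

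Among the glutenins, subunits whose disulfide-linked polymers give dough its strength, the x-type HMW gene TuGlu-1Ax changed most. It had 8481, 9239 and 11609 FPKM at 10 DPA and 18852, 18184 and 18365 FPKM at 15 DPA, a log2 change of 0.93 (adjusted p = 0.002, SE 0.16) that lay just under the size needed for a call; without 10 DPA library 3 it was 1.06 and called. All 3 libraries of 15 DPA stood above those of 10 DPA, by 1.89 times in the means. Its y-type partner TuGlu-1Ay had 6316, 6985 and 8112 FPKM at 10 DPA and 10764, 9920.0 and 7798 FPKM at 15 DPA, with 15 DPA library 3 inside the 10 DPA range and a log2 change of 0.41 (adjusted p = 0.0748, SE 0.17). The ratio of TuGlu-1Ax to TuGlu-1Ay within a library was 1.34, 1.32 and 1.43 at 10 DPA and 1.75, 1.83 and 2.36 at 15 DPA, without overlap. The LMW gene TuA3-538a had 25847, 26193 and 27775 FPKM at 10 DPA and 38626, 31713 and 39569 FPKM at 15 DPA, a log2 change of 0.46 (adjusted p = 0.0438, SE 0.16). The other 2 LMW genes had log2 changes of 0.36 and 0.50, and in each of the 3 LMW genes every 15 DPA library exceeded every 10 DPA library. Sharing of reads among these 3 genes was not tested, so they cannot be taken as 3 independent observations. HMW transcripts went from 0.941 ± 0.156 to 1.41 ± 0.132 percent of the total (SD, n = 3) and LMW transcripts from 3.85 ± 0.225 to 4.74 ± 0.549 percent, with an exact permutation p of 0.1 for each.

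The gliadins, monomeric prolamins that lend dough its viscosity, differed by subclass. Gli-γ-1, the most abundant of all prolamin genes, had 53329.6, 52689.9 and 52671 FPKM at 10 DPA and 90223, 84596 and 99667 FPKM at 15 DPA, a log2 change of 0.79 (adjusted p = 0.00629, SE 0.17). The lowest 15 DPA library stood well above the highest of 10 DPA. Gli-γ-3 had 20068, 19507 and 16754 FPKM at 10 DPA and 24111, 23089.6 and 23347 FPKM at 15 DPA, also without overlap. Gli-γ-2 had 19496, 19776 and 18079 FPKM at 10 DPA and 19400.3, 18751 and 18641 FPKM at 15 DPA, which overlapped, with a log2 change of -0.01 as deposited and 0.91 after scaling. The single ω-gliadin gene, Gli-ω-1, had 10908, 13466 and 7667 FPKM at 10 DPA and 15155, 18198 and 18752 FPKM at 15 DPA, and 10 DPA library 3 was the lowest of the 6. Its log2 change was 0.73 (SE 0.22, adjusted p = 0.024).

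The 12 α-gliadin genes did not move as a block. Their log2 changes ran from -0.41 (Gli-α-5) to 0.63 (Gli-α-3), with 7 above 0. Gli-α-3 had 8833, 8667 and 9712 FPKM at 10 DPA and 14073, 13208 and 14782 FPKM at 15 DPA. Gli-α-2 had 7721, 7515 and 8275 FPKM at 10 DPA and 11599.8, 10890.4 and 11019 FPKM at 15 DPA. In both the groups were apart, as they were in Gli-α-7 and Gli-α-13, with log2 changes of 0.34 and 0.42. Gli-α-5 had 10698, 11161 and 10534 FPKM at 10 DPA and 7966, 9508 and 7043 FPKM at 15 DPA, lower as deposited (adjusted p = 0.047) but higher after scaling (log2 change 0.51). As deposited it was the only storage protein gene in which every 15 DPA library lay below every 10 DPA library. Gli-α-8, the most abundant α-gliadin gene, had 28183, 28199 and 30727 FPKM at 10 DPA and 37358, 36850.2 and 35722 FPKM at 15 DPA. Gli-α-9, the least abundant, had 393, 409 and 297 FPKM at 10 DPA and 394, 357 and 458 FPKM at 15 DPA. A further 5 genes, Gli-α-4, Gli-α-6, Gli-α-10, Gli-α-11 and Gli-α-12, had log2 changes between -0.10 and 0.01, overlapping libraries in each, and all 5 were above 0 after scaling. After scaling the range was 0.51 to 1.55, with 6 of 12 called higher. Reads shared between such closely related genes could have been split by the counting, so single α-gliadin values are uncertain.

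Ratios within a library do not depend on the scaling; the 12 computed were chosen after the values had been seen and are given without a test. The summed γ-gliadins relative to the summed α-gliadins were 0.733, 0.728 and 0.666 at 10 DPA and 0.905, 0.858 and 1.00 at 15 DPA, without overlap. HMW relative to LMW glutenins gave 0.221, 0.239 and 0.271 at 10 DPA and 0.297, 0.347 and 0.257 at 15 DPA, and glutenins relative to gliadins 0.355, 0.363 and 0.408 at 10 DPA and 0.436, 0.373 and 0.424 at 15 DPA; both sets of values overlapped. The α-gliadins took 7.12 ± 0.258 to 7.34 ± 0.429 percent of the total FPKM (SD, n = 3; exact permutation p = 0.6). Outside the 20 most abundant genes, which hold 2 α-gliadin genes, the remaining ones took 10.2 ± 0.298 to 14.5 ± 1.04 percent, without overlap (exact permutation p = 0.1). That remainder itself shrank, as the 20 genes went from 59.0 ± 0.636 to 70.6 ± 0.507 percent of the total FPKM. The difference of 4.34 percentage points is thus on another base than the 0.22 of the total, and does not show a larger gain of α-gliadins. Of the total FPKM the γ-gliadins went from 5.04 ± 0.0883 to 6.75 ± 0.268 percent.

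**Figure D2:**
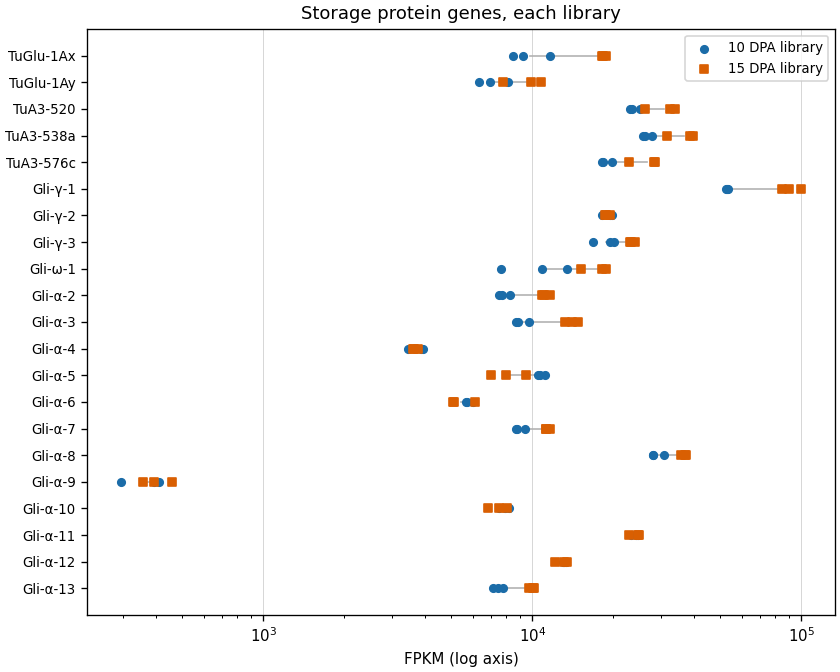
FPKM of the 21 storage protein genes in each 10 DPA library (blue circles) and each 15 DPA library (orange squares) on a log axis, with grey lines joining the means. The 15 DPA squares lie to the right of the circles in Gli-γ-1, TuGlu-1Ax and the 3 LMW genes, and to the left in Gli-α-5, whose direction turns after scaling.

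Among 5 named genes for the folding, maturation and traffic of storage proteins, 4 fell and 0 rose (0 higher at an unadjusted p under 0.05, by limma), where 38.8% of all genes fell and 4.02% rose. TuPdi (TRIUR3_24343), named for protein disulfide isomerase, the enzyme that forms disulfide bonds in new prolamins, had 2615, 2835 and 2558 FPKM at 10 DPA and 183, 248 and 156 FPKM at 15 DPA, a log2 change of -3.79 (adjusted p = 4.84e-06, SE 0.17). The means differed 13.6-fold and the groups were far apart; the log2 change after scaling was -2.87. Tuglup3 (TRIUR3_18628), named after the rice gene for the vacuolar protease that cleaves glutelin precursors, had 1012, 1036 and 1054 FPKM at 10 DPA and 43.1, 46.9 and 26.7 FPKM at 15 DPA, a log2 change of -4.74 (adjusted p = 3.83e-06, SE 0.20). It also fell after scaling, by 3.83 on the log2 scale. The sum of the storage protein genes was 119 ± 6.68 times TuPdi at 10 DPA and 2231 ± 571 times at 15 DPA (SD, n = 3). The TuPdi mean was 1387 FPKM at 5 DPA and 9.06 at 20 DPA, so the 10 DPA level was the highest of these 4 stages. Among genes named after other rice glutelin precursor mutants, Tuglup2 (TRIUR3_21622; in rice a Golgi transport factor) had 8.36, 7.86 and 9.51 FPKM at 10 DPA and 0, 1.09 and 2.58 FPKM at 15 DPA and fell, with a log2 change of -2.29 (adjusted p = 0.0033, SE 0.44). Tuglup4 (TRIUR3_25319; in rice the small GTPase Rab5a of vesicle traffic) had 20.8, 18.1 and 19.0 FPKM at 10 DPA and 4.89, 14.2 and 6.72 FPKM at 15 DPA and a log2 change of -1.19 (adjusted p = 0.0164, SE 0.33). Tuglup6 (TRIUR3_13259; in rice the exchange factor of Rab5a) had 8.72, 11.2 and 6.17 FPKM at 10 DPA and 3.44, 5.63 and 4.70 FPKM at 15 DPA and was not called (log2 change -0.78 as deposited and 0.01 after scaling). The call of Tuglup4 was lost after scaling (-0.35) and also without 10 DPA library 1 (adjusted p = 0.0587), 2 (0.0508) or 3 (0.051), or without 15 DPA library 1 (log2 change -0.90), with a pseudocount of 5 (-0.89), and in a fit of all 15 endosperm libraries.

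Most starch synthesis genes fell, and branching enzyme I stood apart from them. Of 27 genes tested, 18 fell and 0 rose (1 higher at an unadjusted p under 0.05, by limma), against 38.8% of all genes called lower. Their median log2 change was -1.49 against -0.83 for all genes, and -0.57 against -0.13 after scaling. Then 8 were called lower and 2 higher, 29.6% and 7.41% against 12.7% and 8.59% of all genes. The class took 0.289%, 0.291% and 0.341% at 10 DPA and 0.0982%, 0.105% and 0.0831% at 15 DPA of the total FPKM, a 3.22-fold drop of the means (exact permutation p = 0.1). In a fit of all 15 endosperm libraries, which share 1 estimate of the spread (the 15-library fit), 11 were called lower: TuSuSy1, TuUGPase, TuAGPL-cyto, TuGBSSI, TuSSI, TuISA1 and TuPUL lost their calls. The remaining member, TuSBEIII, did not pass the filter on low values.

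All 4 genes grouped under sucrose and UDP-glucose fell. TuSuSy2, a sucrose synthase, had 1700.3, 1741 and 1753 FPKM at 10 DPA and 88.6, 73.8 and 40.7 FPKM at 15 DPA, a log2 change of -4.73 (adjusted p = 9.71e-06, SE 0.26). TuSuSy1, the second sucrose synthase gene, had 284, 266 and 248 FPKM at 10 DPA and 71.0, 82.8 and 64.1 FPKM at 15 DPA, a log2 change of -1.86 (adjusted p = 3e-05, SE 0.13). The 10 DPA ratio lay far below 1 in every library, and at 15 DPA the 2 genes were of like level: TuSuSy1 relative to TuSuSy2 was 0.167, 0.153 and 0.141 at 10 DPA and 0.802, 1.12 and 1.58 at 15 DPA. TuUGPase, a UDP-glucose pyrophosphorylase, had 202, 221 and 219 FPKM at 10 DPA and 94.2, 109.9 and 89.0 FPKM at 15 DPA, with a log2 change of -1.13. TuSPS1, a sucrose phosphate synthase, had 50.6, 34.2 and 47.2 FPKM at 10 DPA and 13.6, 13.1 and 14.8 FPKM at 15 DPA, with -1.59. After scaling TuSuSy2 alone of these 4 was called (log2 change -3.81); TuSuSy1 had -0.95, TuSPS1 -0.71 and TuUGPase -0.22.

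For ADP-glucose synthesis, the committed step, all 4 subunit genes fell as well. The cytosolic pair carried most of the transcript. TuAGPS-cyto, the small subunit, had 518, 533 and 548 FPKM at 10 DPA and 132, 156 and 109 FPKM at 15 DPA, a log2 change of -2.02 (adjusted p = 3.13e-05, SE 0.14). TuAGPL-cyto, the large subunit, had 260.4, 255 and 311 FPKM at 10 DPA and 94.4, 105 and 92.8 FPKM at 15 DPA, a log2 change of -1.49 (adjusted p = 6.21e-05, SE 0.12). Small over large subunit transcript was 1.99, 2.09 and 1.76 at 10 DPA and 1.40, 1.49 and 1.18 at 15 DPA, lower at 15 DPA without overlap. The plastidial genes were weaker and fell too. TuAGPS-plas2, a small subunit, had 25.3, 20.8 and 25.7 FPKM at 10 DPA and 7.89, 4.88 and 3.30 FPKM at 15 DPA. TuAGPL-plas2, a large subunit, had 16.1, 14.6 and 16.5 FPKM at 10 DPA and 3.40, 2.01 and 1.68 FPKM at 15 DPA. After scaling TuAGPL-cyto was not called (log2 change -0.57), and the other 3 were.

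Chain elongation was uneven. TuSSIIa, a starch synthase that lengthens amylopectin chains, had 191, 184 and 218 FPKM at 10 DPA and 11.2, 8.66 and 4.01 FPKM at 15 DPA, a log2 change of -4.56 (adjusted p = 2.39e-05, SE 0.31), the steepest fall among the synthases. TuGBSSI, whose granule-bound product makes amylose, had 898, 881 and 1245 FPKM at 10 DPA and 427, 419 and 298 FPKM at 15 DPA, a log2 change of -1.40 (adjusted p = 0.000701, SE 0.19). Both groups of libraries were apart in each gene, and TuGBSSI relative to TuSSIIa was 4.70, 4.79 and 5.72 at 10 DPA and 38.0, 48.4 and 74.2 at 15 DPA. TuSSI, which adds short amylopectin chains, had 48.2, 42.4 and 65.2 FPKM at 10 DPA and 16.4, 19.3 and 12.9 FPKM at 15 DPA. TuSSIIIa, which makes longer chains, had 26.6, 25.6 and 30.9 FPKM at 10 DPA and 8.26, 9.92 and 7.09 FPKM at 15 DPA; both fell, by 1.61 on the log2 scale. TuGBSSII, TuSSIIb, TuSSIIIb and TuSSIV were weakly expressed at both stages and were not called, with log2 changes of -0.87, -0.41, 0.18 and -0.34; after scaling TuSSIIb (0.37) and TuSSIV (0.18) were above 0, and without 15 DPA library 3 TuGBSSII was called lower (-1.01). After scaling TuSSIIa kept its call (-3.69), and TuGBSSI (-0.48), TuSSI (-0.73) and TuSSIIIa (-0.75) did not.

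Branching enzymes, which create the branch points of amylopectin, did not move together. TuSBEI, the branching enzyme I gene, had 488, 498 and 680.2 FPKM at 10 DPA and 748, 846 and 778 FPKM at 15 DPA: every 15 DPA library lay above every 10 DPA library, with a log2 change of 0.52 (adjusted p = 0.0194, SE 0.15), short of the size for a call. After scaling its log2 change was 1.44 (adjusted p = 0.000471), a call in the higher direction. TuSBEIIb, an amylopectin branching enzyme II gene, had 128, 116 and 150.3 FPKM at 10 DPA and 17.9, 19.1 and 13.9 FPKM at 15 DPA, a log2 change of -2.89 (adjusted p = 1.22e-05, SE 0.17). TuSBEIIa had 133, 131 and 147 FPKM at 10 DPA and 34.8, 37.5 and 31.4 FPKM at 15 DPA, a log2 change of -1.96 (adjusted p = 1.83e-05, SE 0.12), and both isoform II genes were also called lower after scaling (-1.99 and -1.05). TuSBEI relative to TuSBEIIb was 3.80, 4.30 and 4.53 at 10 DPA and 41.8, 44.3 and 56.0 at 15 DPA, an 11.3-fold shift of the means. TuSBEI relative to TuGBSSI was 0.543, 0.566 and 0.547 at 10 DPA and 1.75, 2.02 and 2.61 at 15 DPA, so at 10 DPA the amylose gene exceeded the branching gene in every library and at 15 DPA the order was the other way.

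Among debranching enzymes, which trim misplaced branches, TuISA1 had 55.4, 45.7 and 66.5 FPKM at 10 DPA and 21.5, 19.2 and 20.4 FPKM at 15 DPA (log2 change -1.40). TuISA2 had 34.3, 29.2 and 32.8 FPKM at 10 DPA and 9.57, 10.02 and 11.3 FPKM at 15 DPA (log2 change -1.55). TuPUL, the pullulanase gene, had 51.4, 55.7 and 72.6 FPKM at 10 DPA and 28.4, 31.4 and 26.6 FPKM at 15 DPA (log2 change -1.02). All 3 fell, although the call of TuPUL was lost without 10 DPA library 3 (-0.87) or 15 DPA library 3 (-0.96), and with a pseudocount of 5 (-0.93). TuISA3 stood at 3.39, 3.79 and 2.67 FPKM at 10 DPA and 4.45, 4.68 and 5.04 FPKM at 15 DPA, higher without overlap but not called as deposited (log2 change 0.43); after scaling it was called higher, at 1.15. Of the phosphorylases, the plastidial TuPHO1 fell, with 57.0, 52.9 and 65.4 FPKM at 10 DPA and 9.86, 9.25 and 8.47 FPKM at 15 DPA, a log2 change of -2.54 (adjusted p = 1.26e-05, SE 0.15). The cytosolic TuPHO2 had 20.0, 18.2 and 19.1 FPKM at 10 DPA and 11.1, 12.4 and 11.3 FPKM at 15 DPA and was not called (log2 change -0.67 as deposited, 0.19 after scaling). TuDPE1, a disproportionating enzyme gene, had a log2 change of -0.66 as deposited and 0.21 after scaling, and TuGPT, a glucose 6-phosphate translocator gene, had -0.56 and 0.34; neither was called. After scaling, TuPHO1 was called lower (-1.67), and the log2 changes of TuISA1, TuISA2 and TuPUL were -0.51, -0.68 and -0.12, without a call.

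**Figure D3:**
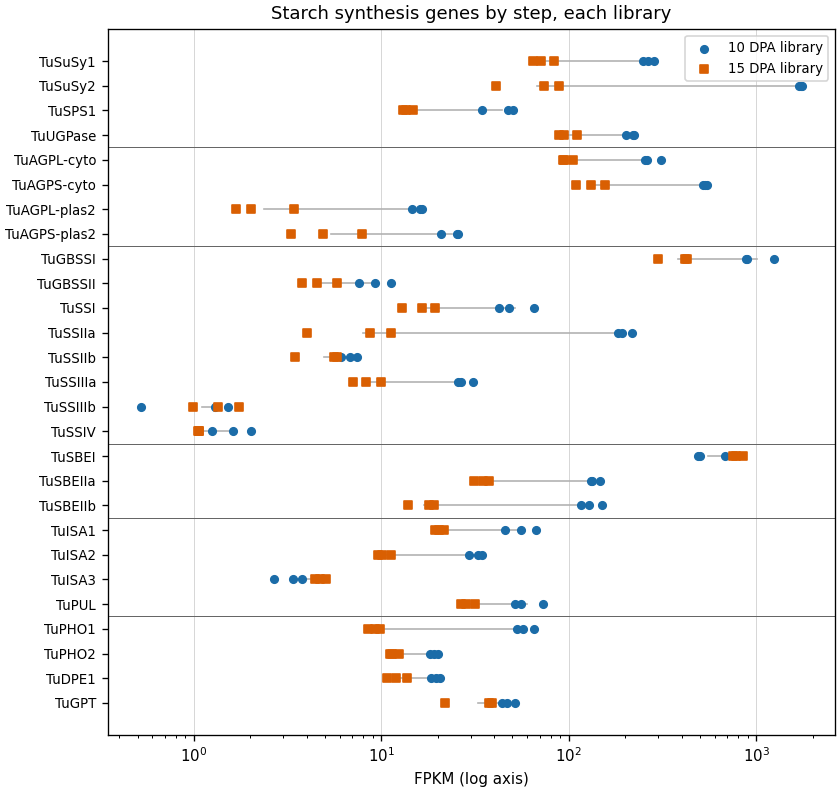
FPKM of the 27 tested starch synthesis genes in each 10 DPA library (blue circles) and each 15 DPA library (orange squares) on a log axis, in blocks for sucrose and UDP-glucose, ADP-glucose synthesis, chain elongation, branching, debranching, and phosphorylases with disproportionation and transport; grey lines join the means. Squares lie left of circles in most rows, farthest in TuSuSy2 and TuSSIIa, and right of them in TuSBEI and TuISA3.

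**Figure D4:**
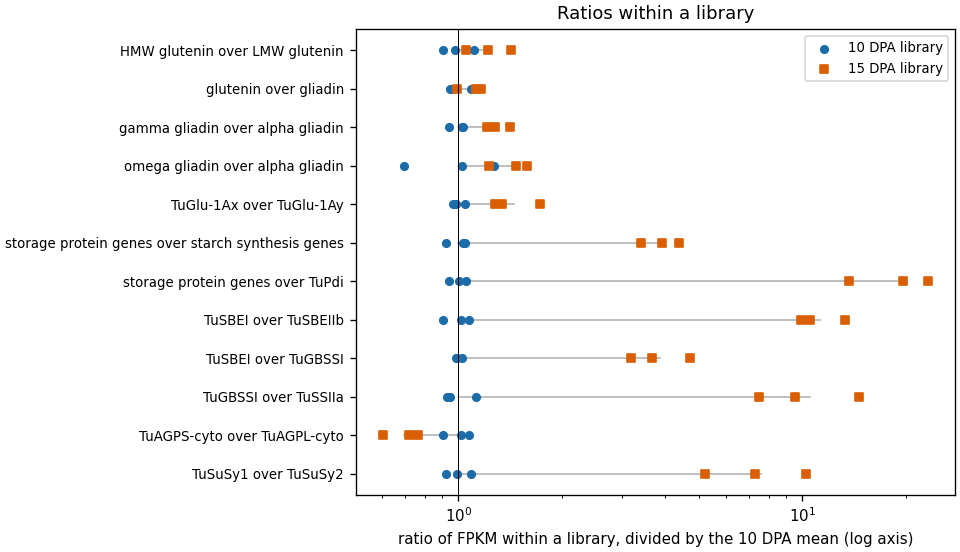
Ratios of FPKM within each library, divided by the 10 DPA mean of that ratio (log axis), for 10 DPA libraries (blue circles) and 15 DPA libraries (orange squares). The ratio of storage protein genes to TuPdi and that of TuSBEI to TuSBEIIb moved most, 18.8-fold and 11.3-fold in the means.

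Of the named regulators of storage protein genes, TuWPBF, TuSPA and TuQM fell and 0 rose (0 higher at an unadjusted p under 0.05, by limma). TuWPBF (TRIUR3_33098), the Dof factor that binds the prolamin box, had 117, 138 and 126 FPKM at 10 DPA and 40.9, 41.1 and 30.1 FPKM at 15 DPA, a log2 change of -1.75 (adjusted p = 8.83e-05, SE 0.16). TuSPA (TRIUR3_18984), a bZIP storage protein activator, had 17.9, 15.7 and 18.8 FPKM at 10 DPA and 5.45, 3.16 and 7.88 FPKM at 15 DPA, a log2 change of -1.57 (adjusted p = 0.00243, SE 0.28). TuQM (TRIUR3_30652), named after a ribosomal protein also described as a transcriptional cofactor, had 390.5, 444 and 409.8 FPKM at 10 DPA and 162, 156 and 116 FPKM at 15 DPA, a log2 change of -1.52 (adjusted p = 0.000135, SE 0.15). None of these 3 was called after scaling, with log2 changes of -0.85, -0.74 and -0.61, and TuWPBF and TuQM also lost their calls in the 15-library fit. TuGAMYB (TRIUR3_27104), a MYB factor of the gibberellin response, had 41.5, 44.8 and 56.7 FPKM at 10 DPA and 31.8, 29.9 and 29.9 FPKM at 15 DPA, lower without overlap as deposited (log2 change -0.61) but above 0 after scaling (0.28), and was not called. TuOHP1 (TRIUR3_24233), named after a bZIP partner of Opaque2 in maize, had 10.4, 13.6 and 12.1 FPKM at 10 DPA and 6.61, 9.39 and 9.98 FPKM at 15 DPA (log2 change -0.44 as deposited and 0.39 after scaling), without a call. TuGCN5 (TRIUR3_27913), a histone acetyltransferase gene, overlapped between the stages, with 8.26, 8.51 and 10.7 FPKM at 10 DPA and 7.25, 9.31 and 7.92 FPKM at 15 DPA (log2 change -0.15 as deposited and 0.68 after scaling). TuFUS3 (TRIUR3_32813), a B3 factor of seed maturation, had 0.900, 0.850 and 1.37 FPKM at 10 DPA and 0, 0.560 and 0 FPKM at 15 DPA, below the filter. Over the whole group of 12, which includes TuPdi and the Tuglup genes, 7 of 11 tested fell and 0 rose (0 higher at an unadjusted p under 0.05, by limma), 63.6% lower against 38.8% of all genes, and 3 were called lower after scaling, 27.3% against 12.7%.

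Across the transcription factor families 546 of 1099 genes were tested; 19 rose and 175 fell, against 4.02% and 38.8% of all genes, that is 3.48% and 32.1% of these. Their median log2 change was -0.68, and 0.01 after scaling. Then 55 were called higher and 65 lower, 10.1% and 11.9%, close to the 8.59% and 12.7% of all genes. MIKC MADS-box genes and heat shock factors (HSF) lay at the ends of the range of family medians among families with at least 5 tested members.

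MIKC-type MADS-box genes, regulators of floral and seed organ identity, had 11 of 20 members tested. Of these 9 fell and 0 rose (0 higher with unadjusted p below 0.05 in limma), 81.8% lower against 38.8% of all genes. Their median log2 change was -2.10, and 8 were called lower after scaling, 72.7% against 12.7%. TRIUR3_28216, the most abundant, had 161, 145 and 132 FPKM at 10 DPA and 20.1, 22.4 and 18.9 FPKM at 15 DPA, a log2 change of -2.78 (adjusted p = 6.02e-06, SE 0.13). TRIUR3_24724 had 69.6, 77.4 and 81.6 FPKM at 10 DPA and 13.03, 11.4 and 4.52 FPKM at 15 DPA. TRIUR3_28215 had 77.3, 69.9 and 74.5 FPKM at 10 DPA and 13.9, 19.1 and 18.9 FPKM at 15 DPA. TRIUR3_22246 fell most steeply in the family, from 40.2 ± 3.11 to 1.66 ± 1.43 FPKM (SD, n = 3). In all 4 genes every 15 DPA library was far below every 10 DPA library, and all 4 were also called after scaling. The YABBY family, regulators of organ polarity, had only 3 tested members of 5. All 3 were called lower as deposited and after scaling, against 38.8% and 12.7% of all genes.

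Of 23 tested B3 genes, a family that holds seed maturation regulators, 10 fell and 1 rose, 43.5% and 4.35%, close to the 38.8% and 4.02% of all genes; after scaling 5 were called lower, 21.7% against 12.7%. TRIUR3_21370 had 33.8, 31.8 and 33.6 FPKM at 10 DPA and 3.93, 3.10 and 3.64 FPKM at 15 DPA, a log2 change of -2.91 (adjusted p = 1.05e-05, SE 0.16). TRIUR3_07102 had 25.9, 26.4 and 27.4 FPKM at 10 DPA and 2.35, 1.70 and 1.59 FPKM at 15 DPA, with a log2 change of -3.27. Every 15 DPA library of this pair was far below the 10 DPA range. Another abundant member, TRIUR3_22986, overlapped between the stages, with 12.7, 10.98 and 13.3 FPKM at 10 DPA and 11.8, 13.5 and 9.05 FPKM at 15 DPA (log2 change -0.11 as deposited and 0.74 after scaling). In the homeodomain leucine zipper (HD-ZIP) family 5 of 11 fell, 45.5% against 38.8% of all genes. After scaling 4 were called lower and 2 higher, 36.4% and 18.2% against 12.7% and 8.59% of all genes. The steepest fall was that of TRIUR3_16941, which went from 23.1 ± 2.18 to 1.74 ± 1.36 FPKM (SD, n = 3). The auxin response factors (ARF) gave 6 falls among 12, where 38.8% of all genes fell, but 1 of 12 after scaling, 8.33% against 12.7%. TRIUR3_35254, an ARF gene, had 55.7, 59.7 and 47.9 FPKM at 10 DPA and 13.8, 19.3 and 12.8 FPKM at 15 DPA. Its groups were apart as well, but its call was lost after scaling and in the 15-library fit. Of the MYB genes 10 of 34 fell and 1 rose, 29.4% and 2.94%, both under the shares of all genes as deposited. After scaling 6 were called lower and 1 higher, 17.6% and 2.94% against 12.7% and 8.59% of all genes. In this family TRIUR3_25784 had 28.9, 26.3 and 28.1 FPKM at 10 DPA, TRIUR3_20797 had 22.0, 21.2 and 23.7, and TRIUR3_25230 had 13.7, 17.7 and 9.88. Each was listed at 0 in all 3 libraries of 15 DPA. The WRKY gene TRIUR3_26868 had 20.6, 20.8 and 21.2 FPKM at 10 DPA and 0.920, 0 and 0 FPKM at 15 DPA. Only 4 of 27 WRKY genes fell, 14.8% against 38.8% of all genes. In the ethylene response factor (ERF) family 6 of 15 fell and 1 rose, 40.0% and 6.67% against 38.8% and 4.02% of all genes. After scaling 3 were called lower and 3 higher, 20.0% each, against 12.7% and 8.59% of all genes. The ERF gene TRIUR3_18522 had 288, 295 and 293 FPKM at 10 DPA and 74.5, 74.1 and 51.6 FPKM at 15 DPA, a log2 change of -2.13 (adjusted p = 3.79e-05, SE 0.16). TRIUR3_22374 of the same family fell from 41.8 ± 7.26 to 1.63 ± 0.728 FPKM (SD, n = 3).

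Of the 19 transcription factor genes called higher, 4 were NAC, 3 HSF and 3 MYB-related genes. NAC factors, a plant family with members that act on starch and prolamin genes in cereal endosperm, gave 4 rises and 16 falls among 43 tested, 9.30% and 37.2% against 4.02% and 38.8% of all genes. After scaling 9 were called higher and 10 lower, 20.9% and 23.3% against 8.59% and 12.7%. TRIUR3_00447, the most abundant, had 171, 188 and 235 FPKM at 10 DPA and 382, 435 and 440.2 FPKM at 15 DPA, a log2 change of 1.09 (adjusted p = 0.000591, SE 0.15) that was 0.99 without 10 DPA library 1 and 0.95 under total FPKM scaling, both short of a call. TRIUR3_01582 had 188, 184 and 217 FPKM at 10 DPA and 261, 309.5 and 315 FPKM at 15 DPA, without overlap and with a log2 change of 0.58 (adjusted p = 0.00567). TRIUR3_25136 had 147, 176 and 168 FPKM at 10 DPA and 177, 182 and 152 FPKM at 15 DPA and overlapped. After scaling these 3 had log2 changes of 2.01, 1.50 and 0.97. Of weaker NAC genes, TRIUR3_20284 had 13.2, 12.4 and 26.4 FPKM at 10 DPA and 31.2, 40.6 and 63.5 FPKM at 15 DPA. TRIUR3_00446 had 3.90, 3.03 and 6.49 FPKM at 10 DPA and 13.04, 9.71 and 14.5 FPKM at 15 DPA. TRIUR3_14109 had 13.4, 8.64 and 9.89 FPKM at 10 DPA and 19.3, 26.5 and 20.8 FPKM at 15 DPA. All 3 rose, with groups apart, but TRIUR3_20284 was not called without 10 DPA library 2 (adjusted p = 0.0521), nor TRIUR3_14109 without 10 DPA library 2 (0.88) or 3 (0.96) or 15 DPA library 2 (0.88). With a pseudocount of 5 TRIUR3_00446 (0.89) and TRIUR3_14109 (0.80) were not called, nor was TRIUR3_14109 under total FPKM scaling (0.87). In the 15-library fit TRIUR3_00447 and these 3 genes all lost their calls. The NAC gene TRIUR3_09915 fell, from 27.4 ± 6.66 to 0.580 ± 0.688 FPKM (SD, n = 3).

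HSF genes, activators of chaperone genes under heat and in seed maturation, had 12 of 17 members tested. Of these 3 rose and 0 fell (0 lower with unadjusted p below 0.05 in limma), 25.0% higher against 4.02% of all genes. After scaling 7 were called higher, 58.3% against 8.59%. TRIUR3_19198 had 0.290, 0.820 and 0.290 FPKM at 10 DPA and 10.9, 8.59 and 15.1 FPKM at 15 DPA, a log2 change of 3.08 (adjusted p = 0.000102, SE 0.29). TRIUR3_26103 had 9.07, 5.74 and 12.7 FPKM at 10 DPA and 20.9, 20.3 and 24.4 FPKM at 15 DPA, a log2 change of 1.22 (adjusted p = 0.00556, SE 0.26), with the groups apart in both; without 10 DPA library 2 the latter was 0.95, under the size for a call. TRIUR3_26103 also lost its call with a pseudocount of 5 (0.95) and in the 15-library fit. TRIUR3_19594 had 16.0, 18.9 and 19.3 FPKM at 10 DPA and 21.9, 25.7 and 20.0 FPKM at 15 DPA, apart by a small margin and not called as deposited (log2 change 0.30). TRIUR3_12841 had 6.56, 9.32 and 12.9 FPKM at 10 DPA and 12.2, 15.9 and 12.5 FPKM at 15 DPA, with overlap. Outside these families, the ERF gene TRIUR3_11943 rose, with 2.63, 2.50 and 3.22 FPKM at 10 DPA and 15.0, 11.3 and 13.2 FPKM at 15 DPA. The MYB-related gene TRIUR3_11068 rose as well, with 4.15, 2.24 and 6.68 FPKM at 10 DPA and 19.9, 30.1 and 25.8 FPKM at 15 DPA. A second MYB-related gene, TRIUR3_01040, rose with 5.22, 4.10 and 5.11 FPKM at 10 DPA and 13.4, 12.9 and 12.5 FPKM at 15 DPA. The groups were apart in all 3, but all 3 lost their calls in the 15-library fit, and TRIUR3_01040 also with a pseudocount of 5 (0.87). The bHLH gene TRIUR3_24765 rose from 8.50 ± 1.79 to 18.4 ± 2.52 FPKM (SD, n = 3). In its family 13 of 29 fell, 44.8% against 38.8% of all genes. After scaling 3 bHLH genes were called lower and 3 higher, 10.3% each, against 12.7% and 8.59% of all genes. TRIUR3_24765 had a log2 change of 1.04, which was 0.87 without 10 DPA library 3, 0.99 without 15 DPA library 1 and 0.97 without 15 DPA library 2. It was also not called under total FPKM scaling (0.91), with a pseudocount of 5 (0.79) or in the 15-library fit. No bZIP gene was called higher as deposited (3 of 47 higher at an unadjusted p under 0.05, by limma). In that family 15 fell, 31.9% against 38.8% of all genes. After scaling 8 were called higher and 2 lower, 17.0% and 4.26% against 8.59% and 12.7%. TRIUR3_31111, the most abundant, had 58.2, 56.8 and 67.9 FPKM at 10 DPA and 61.8, 68.9 and 60.4 FPKM at 15 DPA. Among nuclear factor Y subunits, CCAAT-box binding factors, 8 of 25 fell, 32.0% against 38.8% of all genes. After scaling 2 were called lower, 8.0% against 12.7%. The abundant NF-YC gene TRIUR3_29815 had 439, 457 and 449.5 FPKM at 10 DPA and 305, 307 and 294 FPKM at 15 DPA. It was lower without overlap but under the size for a call (log2 change -0.57), and above 0 after scaling (0.35).

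**Figure D5:**
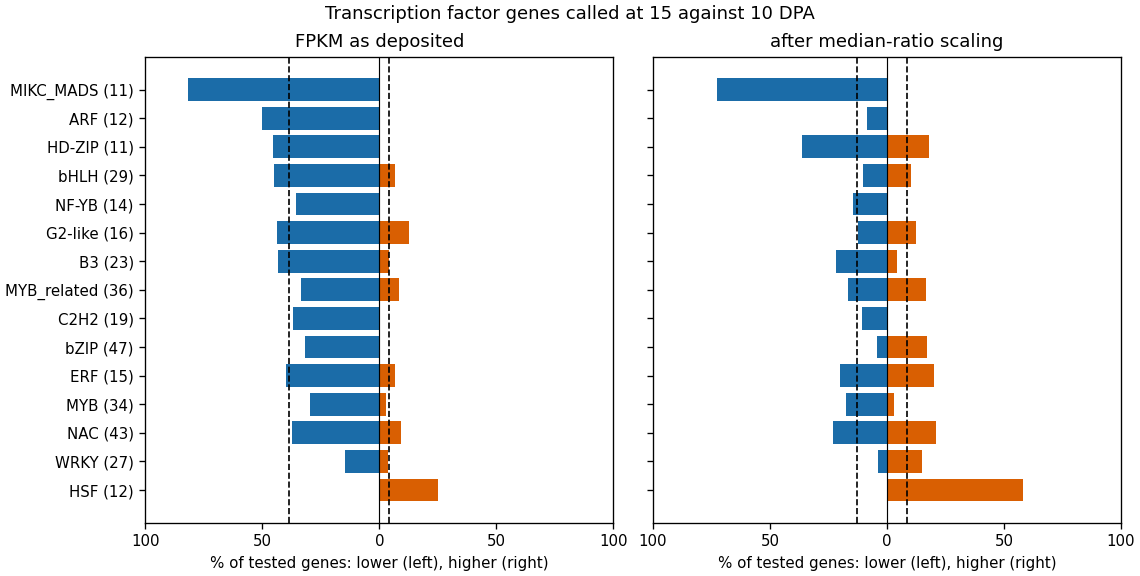
Percent of tested genes called lower (blue, left) and higher (orange, right) at 15 against 10 DPA in 15 transcription factor families, tested members in brackets, as deposited and after median-ratio scaling; dashed lines give the shares of all genes, 38.8% and 4.02% as deposited and 12.7% and 8.59% after scaling. MIKC MADS-box genes reach farthest to the left and HSF genes farthest to the right in both panels.

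Genes with an identifier only included the largest changes of the comparison. TRIUR3_00666 had 2036, 1907 and 2044 FPKM at 10 DPA and 1.52, 0 and 0.920 FPKM at 15 DPA, a log2 change of -10.20 (adjusted p = 9.49e-07, SE 0.31). TRIUR3_17260 had 1025, 1047 and 742 FPKM at 10 DPA and 1.15, 1.18 and 0 FPKM at 15 DPA. TRIUR3_07265 had 581, 597 and 479 FPKM and TRIUR3_08931 had 307, 303 and 331 FPKM at 10 DPA, and both were listed at 0 in every 15 DPA library. Their earlier levels differed: at 5 DPA the mean was 3798 FPKM for TRIUR3_07265 and 1.19 for TRIUR3_08931. In the other direction TRIUR3_17017 had 0, 0 and 8.02 FPKM at 10 DPA and 4109, 6034 and 5951 FPKM at 15 DPA, a log2 change of 11.31 (adjusted p = 2.7e-05, SE 0.78) whose size depends on the pseudocount, since 2 of the 10 DPA libraries were at 0. TRIUR3_18301 had 1.90, 1.20 and 0.640 FPKM at 10 DPA and 276, 371 and 359.8 FPKM at 15 DPA. TRIUR3_06537 had 0, 3.64 and 6.41 FPKM at 10 DPA and 412, 493 and 429 FPKM at 15 DPA. TRIUR3_27217 and TRIUR3_26240 were listed at 0 in all 10 DPA libraries and had 246, 186 and 199 FPKM and 130.0, 128 and 192 FPKM at 15 DPA. Each of these 9 genes was also called, in the same direction, after scaling.

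The most abundant transcripts of both stages were also unannotated. TRIUR3_32831 had 197403, 184188 and 182170.4 FPKM at 10 DPA and 223408, 225800.2 and 203128 FPKM at 15 DPA. TRIUR3_00135 had 146920.3, 140387 and 176167 FPKM at 10 DPA and 251203, 250953 and 215385 FPKM at 15 DPA; in both the groups were apart, and neither was called as deposited. TRIUR3_29051 was among the 12 most abundant unannotated genes and rose, with 24943, 24303 and 25528 FPKM at 10 DPA and 50083, 50391 and 55285 FPKM at 15 DPA, a log2 change of 1.06 (adjusted p = 0.000871, SE 0.15). It was not called under total FPKM scaling, where its log2 change was 0.92, or in the 15-library fit. TRIUR3_00024 stood highest in 15 DPA library 3, with 73573, 62809 and 72457 FPKM at 10 DPA and 92688, 103672 and 175339 FPKM at 15 DPA. TRIUR3_00136 and TRIUR3_00018 held the same value in every library. Together the 12 took 47.9%, 46.6% and 47.0% at 10 DPA and 55.6%, 57.1% and 55.3% at 15 DPA of the total FPKM. By level, the 82 tested genes that averaged 1000 FPKM or more had a median log2 change of 0.16, against -1.34 for the 532 genes between 100 and 1000 FPKM, -1.02 for the 4202 between 10 and 100, and -0.74 for the 9833 below 10. After scaling the same medians were 1.08, -0.42, -0.15 and -0.11. Of the 82 most abundant genes 41 were then called higher and 2 lower, against 8.59% and 12.7% of all genes. As deposited 12 of the 82 rose and 9 fell, against 4.02% and 38.8% of all genes.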

How the data were processed

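RNA-Seq values of endosperm libraries from Triticum urartu at 10 and 15 DPA, 3 of each, were analysed. The authors deposited 1 table of FPKM values per gene and library; per the submitters' processing notes Bowtie 0.12.2 was used, while for the genome build, annotation and counting program the sources used here state nothing. Total FPKM was 1772166 to 1826023 at 10 DPA and 1931439 to 2058668 at 15 DPA. No read counts accompany the values, so no counting interval is given.

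Genes with at least 1 FPKM in at least 3 of the 6 libraries entered a linear model of log2(FPKM + 1) on these 6 libraries alone, with a mean-variance trend (limma 3.58.1, R 4.3.3), and p-values were adjusted by Benjamini-Hochberg over all 14649 genes. Genes were called at an adjusted p under 0.05 with a log2 change of at least 1. A second fit used median-ratio scaling on the 12277 genes above 0 in all 6 libraries. Shares of total FPKM were compared by a two-sided exact permutation test. The fit was tested on simulated data with few changed genes and no shift of the typical gene. That test does not bear on the choice of scaling.

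Members, lists and tests were chosen with earlier results of these data known. Named were all storage protein, starch and named regulator genes, the 3 most abundant tested members of each family with at least 5 tested, the 10 largest called rises and falls among annotated genes reaching 10 FPKM, the 5 largest among unannotated genes reaching 100 FPKM and the 12 most abundant unannotated genes, 183 genes in all; the text describes those the results turn on. The alternatives were scaling by total FPKM, pseudocounts of 0.1 and 5, no filter and a filter at 5 FPKM, no trend, a fit with all 15 endosperm libraries, and leaving out each library. Leaving out each library under median-ratio scaling was added after seeing the data. Table identifiers matched 0 entries of the reference gene table, so names are those of the deposited table.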

Additional observations from a re-analysis of the deposited data

How the results depend on the processing

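The 589 genes called higher at 15 DPA became 1259 after median-ratio scaling, 333 with a pseudocount of 5 and 279 in a fit of the 15 endosperm libraries; the 5682 called lower became 1857, 2684 and 3259. Called starch genes changed from 0 higher and 18 lower to 2 and 8 after scaling, with 11 lower in the 15-library fit, and storage protein genes from 0 to 14 higher. Transcription factor genes called higher, 19 as reported, were 55 after scaling, 5 with a pseudocount of 5, 11 with a minimum of 5 FPKM and 7 in the 15-library fit; those called lower, 175 as reported, were 65, 68, 108 and 110. Of 183 named genes 78 were called as reported and 44 in the 15-library fit. Leaving out each library gave 524 to 606 genes higher, 5067 to 5990 lower, 0 to 1 storage protein genes higher and 17 to 18 starch genes lower. Under scaling, the same omission (added after seeing the data) gave 1053 to 1302 higher and 1431 to 2120 lower.

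Counted outside the 20 most abundant genes, the differences in share (15 minus 10 DPA) kept their direction. They were 8.37 percentage points for storage protein genes, 4.34 for α-gliadins, 1.53 for ω-gliadin and 2.51 for HMW glutenins. Those of starch genes were -0.43, named regulators -0.51, transcription factors -0.23 and unannotated genes -7.21. The remainder was itself smaller at 15 DPA, so these points cannot be set against points of the total. As folds, the drops were 2.31 against 3.22 of the total for starch genes, 7.09 against 9.90 for named regulators and 1.28 against 1.78 for transcription factors. The drop of unannotated genes was 1.09 against 1.04, and the gain of storage protein genes 1.60 against 1.20. All γ-gliadin and LMW glutenin genes were among those 20 and gave no value.

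After median-ratio scaling the log2 change turned above 0 for Gli-α-5 (0.51), Gli-α-6 (0.82), Gli-α-10 (0.85), Gli-α-12 (0.89), Gli-α-4 (0.89), Gli-γ-2 (0.91), TuDPE1 (0.21), TuGPT (0.34), TuPHO2 (0.19), TuSSIIb (0.37), TuSSIV (0.18), TuGAMYB (TRIUR3_27104, 0.28), TuGCN5 (TRIUR3_27913, 0.68), Tuglup6 (TRIUR3_13259, 0.0072), TuOHP1 (TRIUR3_24233, 0.39), TRIUR3_22986 (0.74) and TRIUR3_29815 (0.35). Scaling to the same total FPKM turned Gli-α-11 (-0.13), TRIUR3_25136 (-0.084) and TRIUR3_31111 (-0.073) below 0. Without single libraries the log2 change ran from -0.016 to 0.045 for Gli-α-11, -0.053 to 0.012 for Gli-γ-2, -0.039 to 0.32 for TuSSIIIb, -0.23 to 0.035 for TRIUR3_22986 and -0.022 to 0.13 for TRIUR3_25136. The cause of these changes was not tested.

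No paired analysis was possible because the deposited columns carry no sample number and the titles of the groups share fewer than 2 numbers. Counting depth is unknown, so values near 0 cannot be given a limit.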

Other observations

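At 15 DPA, 118 genes that averaged at least 10 FPKM at 10 DPA were listed at 0 in all 3 libraries, against 32 in the reverse direction. Of all tested genes, 38.8% were called lower and 4.02% higher. Of the 118, 4 carried an annotation, the MYB genes TRIUR3_25784, TRIUR3_20797 and TRIUR3_25230 and the NF-YB gene TRIUR3_23146. The 32 had none, and annotation is rare in the table as a whole, with 1160 of 27121 genes. The 15 DPA libraries were the shallower ones by the estimate from low values, and its part in these counts was not tested.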
